A study of Mus musculus with 8 samples.

Results

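The 8 genes described here are paralogs of the mouse serpin Serpina3 family in one row on chromosome 12, Serpina3n, Serpina3m, Serpina3g, Serpina3f, Serpina3i, Serpina3h, Serpina3c and Serpina3k, out of 56576 genes in the deposited table. They were chosen by symbol because the normalized counts of Serpina3n and Serpina3m were far lower in every mutant library than in every control library, so their difference between genotypes is given as a description with no test. The measurement was RNA bound to hemagglutinin-tagged ribosomes, pulled down from cerebral cortex synaptosomes at postnatal day 15 (P15) and sequenced. Controls (4 libraries) were Lhx6-Cre;ErbB4+/+;Rpl22HA/HA and mutants (4 libraries) were Lhx6-Cre;ErbB4F/F;Rpl22HA/HA, so Cre and both tagged Rpl22 alleles are shared by all 8 libraries, and the floxed Erbb4 alleles separate them. In young postmitotic interneurons that derive from the medial ganglionic eminence, MGE, or from the preoptic area, Lhx6-Cre removes Erbb4, a receptor tyrosine kinase for neuregulins, and switches on the ribosome tag. The question behind the comparison was which synaptic ribosome-associated RNAs of these interneurons change without Erbb4.

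Serpins are protease inhibitors that present a flexible reactive centre loop to a protease, are cleaved by it and trap it in an inactive complex. The clade A serpins are mostly secreted, and the mouse Serpina3 genes arose by local duplication of the gene whose human counterpart, SERPINA3, encodes alpha-1-antichymotrypsin. Serpina3n is an acute-phase gene that in brain is known from astrocytes and oligodendrocytes, where it rises with inflammation and injury.

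Reads counted on genes ran from 51010687 to 80226984 in controls and from 58967504 to 74609576 in mutants. Erbb4 (GSMG0001693, chr1:68032186-69108060 of mm10), the targeted gene, averaged 3589 ± 1614 normalized counts in the 4 controls and 1410.0 ± 321 in the 4 mutants (mean ± SD, as throughout, n = 4 per genotype), a log2 difference of -1.25 (standard error 0.34). Its level in control replicate 1, at 1640.1, was below mutant replicates 2 (1711) and 3 (1648) and far from the other controls (3034 to 5377). This library is kept under its label, and the log2 difference of each Serpina3 member above the filter is also given without it. Rpl22, the tagged ribosomal protein gene, had 828 ± 371 normalized counts in controls and 572 ± 129 in mutants and did not pass the thresholds. A gene was called where limma on log2(normalized count + 1) gave an unadjusted p of at most 0.05 and the change was at least 1.5-fold, over 31171 genes with a mean of at least 10 normalized counts in at least 1 genotype. Of these, 988 (3.17%) were called lower and 1241 (3.98%) higher in mutants, and 677 (2.17%) had every mutant library below every control library. With a Benjamini-Hochberg adjusted p under 0.05 from limma, 14 genes were lower and 0 were higher, against 1421 higher at an unadjusted p under 0.05. On recovered reads, edgeR gave 0 and DESeq2 gave 32 higher genes at that adjusted p. The median log2 difference of all genes tested was 0.06.

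The 8 genes span 267 kb of chromosome 12, from the start of Serpina3c at 104146907 to the end of Serpina3n at 104414329 (mm10, 1-based, as in the table). They do not follow each other without a break. GENCODE M21 places the pseudogenes Serpina3d-ps and Serpina3e-ps between Serpina3c and Serpina3f, the coding gene Serpina3j between Serpina3i and Serpina3k, and the pseudogene Serpina3l-ps between Serpina3k and Serpina3m. In genome order the 8 are Serpina3c, Serpina3f, Serpina3g, Serpina3h, Serpina3i, Serpina3k, Serpina3m and Serpina3n. Serpina3c is on the minus strand and the other 7 are on the plus strand. The members that carried the difference were neighbours at the far end of the row, with 12.4 kb between the end of Serpina3m (chr12:104387164-104394258) and the start of Serpina3n (chr12:104406708-104414329). Serpina3k (chr12:104338484-104345741) lay 41.4 kb before Serpina3m. Serpina3f (chr12:104214543-104221129), Serpina3g (chr12:104236147-104241944), Serpina3h (chr12:104247895-104254405) and Serpina3i (chr12:104263122-104269365) formed a tighter block with 5.95 to 15.02 kb between them, and Serpina3c (chr12:104146907-104153872) stood 60.7 kb before it. GENCODE M21 annotates Serpina3h as a transcribed pseudogene and starts its Serpina3m gene model at the first exon of Serpina3k, so that the 2 models overlap there, while the coordinates in the table keep the 2 genes apart.

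RefSeq's GRCm38.p6 table held a promoter for 5 of the 8 members, and the 250 bases before each start were compared. The Serpina3n and Serpina3c promoters were 92.7% identical (229 of 247 aligned bases), and the other 9 pairs were 61.9% to 79.7% identical. The 3 printed here show the strongly expressed gene, its near-identical counterpart that was almost silent in these libraries, and a member of the block that differs. Capitals mark the 9 bases that align with one another, of which the stretch in Serpina3i spells TTCNNNGAA, the letters of a binding motif of STAT transcription factors. Serpina3n is chr12:104406458-104406707 on the plus strand, Serpina3c is chr12:104153873-104154122 on the minus strand and Serpina3i is chr12:104262872-104263121 on the plus strand, each written 5′ to 3′.
Serpina3n: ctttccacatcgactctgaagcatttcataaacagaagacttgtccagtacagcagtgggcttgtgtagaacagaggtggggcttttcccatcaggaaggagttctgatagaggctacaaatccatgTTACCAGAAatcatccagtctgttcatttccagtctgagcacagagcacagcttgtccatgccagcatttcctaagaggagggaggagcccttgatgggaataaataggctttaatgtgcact
Serpina3c: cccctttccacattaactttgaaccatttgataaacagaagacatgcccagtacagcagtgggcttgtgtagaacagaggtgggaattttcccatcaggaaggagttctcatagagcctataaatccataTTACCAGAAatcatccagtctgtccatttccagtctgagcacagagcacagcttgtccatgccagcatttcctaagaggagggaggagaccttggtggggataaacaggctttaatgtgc
Serpina3i: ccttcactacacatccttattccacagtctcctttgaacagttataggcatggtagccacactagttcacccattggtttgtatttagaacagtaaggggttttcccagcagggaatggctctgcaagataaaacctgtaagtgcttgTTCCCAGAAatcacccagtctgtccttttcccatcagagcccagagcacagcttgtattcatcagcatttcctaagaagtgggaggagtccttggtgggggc
The aligned stretch read TTCCCAGAA in Serpina3i and Serpina3g, TTCCTAGAA in Serpina3f and TTACCAGAA in both Serpina3n and Serpina3c. Counted from 1 at its 5′ end, the stretch thus differs from that of Serpina3i by C5T in Serpina3f and by C3A in Serpina3n and Serpina3c. TTCNNNGAA, a palindromic pattern searched on both strands, was found in Serpina3f, Serpina3g and Serpina3i and in 7.02% of 32851 promoter windows of the same length. TATAAA, also searched on both strands, was found in Serpina3c and Serpina3f and in 12.4% of those windows. The letters of neither pattern were in the Serpina3n window.

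Serpina3n (GSMG0008482), an inhibitor of serine proteases, was by far the most abundant member. Control replicates 1, 3, 4 and 5 had 6225, 3772, 6052 and 2989 normalized counts of Serpina3n, and mutant replicates 2, 3, 4 and 5 had 735, 678, 386 and 241. The groups did not overlap, and the lowest control was 4.07 times the highest mutant. The means were 4759.7 ± 1626 in controls and 509.9 ± 236 in mutants, a 9.33-fold difference of means and a log2 difference of -3.29 (standard error 0.38). Without control replicate 1 the log2 difference was -3.14, and it ran from -3.51 to -2.97 as each library was left out. These values rested on 16705 reads in controls and 2213 in mutants, so counting error was small beside the spread between libraries, whose coefficient of variation was 34.2% in controls and 46.2% in mutants. Within controls, replicates 1 and 4 were high and replicates 3 and 5 were low, and within mutants replicates 2 and 3 were above replicates 4 and 5. Per kb of its longest transcript, Serpina3n was ranked among the 16592 tested genes with a length. It stood at the 90.2 percentile in controls and at the 49.9 percentile in mutants. These ranks are approximate, since reads were counted on constitutive regions and not over whole transcripts.

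Serpina3m (GSMG0008481), a protein-coding paralog next to Serpina3n, had 177, 80.1, 239 and 106 normalized counts in control replicates 1, 3, 4 and 5. No mutant library had a read on Serpina3m. The control mean was 151 ± 71.9 normalized counts, from 533 reads in all. The control mean was 52.9 times a floor of 3 reads per mutant library, which is 2.85 normalized counts on average. This limit covers counting error in mutants only and leaves out the spread between controls. The fitted log2 difference was -7.12, a value that depends on the pseudocount and is no bound, and it ran from -7.38 to -6.85 as each library was left out (-7.00 without control replicate 1). Serpina3m was thus listed at 0 in all 4 mutants where Serpina3n still had 243 to 860 reads per library.

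**Figure D1:**
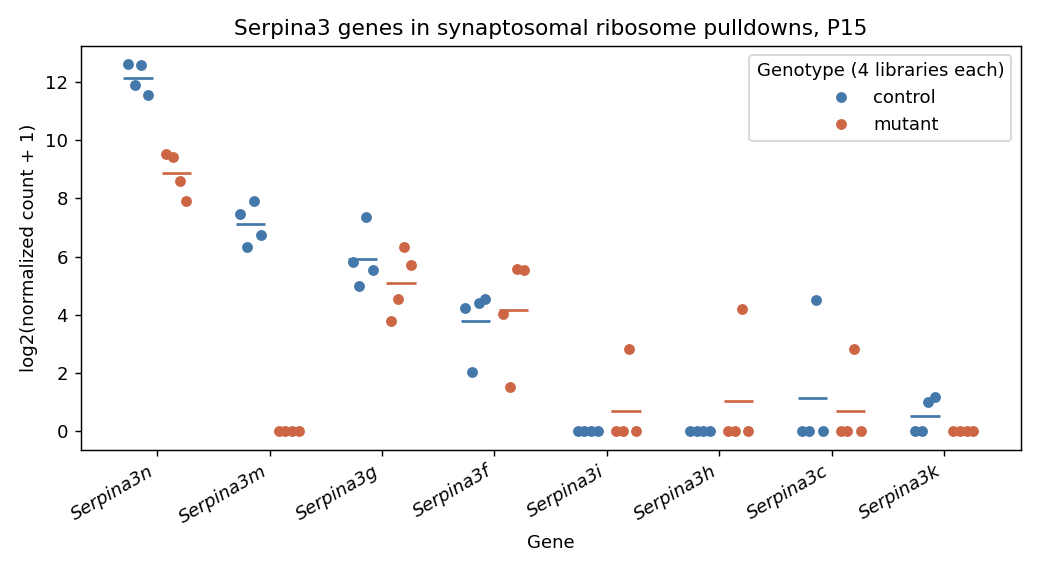
Normalized counts of the 8 Serpina3 genes, as log2(normalized count + 1) on the vertical axis, with 1 point per library and a bar at the mean of each genotype (blue, 4 controls; orange, 4 mutants). Serpina3n and Serpina3m are the genes whose groups do not overlap, and Serpina3m is at 0 in all 4 mutants.

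The 2 neighbours did not fall in proportion. Serpina3m took 2.77% of the reads on the 2 genes in control replicate 1 (95% exact binomial interval 2.32 to 3.28), 2.08% in replicate 3 (1.65 to 2.59), 3.802% in replicate 4 (3.34 to 4.30) and 3.44% in replicate 5 (2.76 to 4.23). In mutants it took 0 of 860, 734, 376 and 243 reads in replicates 2, 3, 4 and 5, which allow shares of up to 0.349%, 0.409%, 0.798% and 1.23%. Every mutant limit was below every control share. At the pooled control share of 3.09%, 70.6 reads would have fallen on Serpina3m in mutants, and 0 reads allow a pooled share of up to 0.136%. The intervals and limits cover counting error only, since reads copied by PCR are not independent molecules. Both genes were part of the rule, so the difference in share is a description too.

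**Figure D2:**
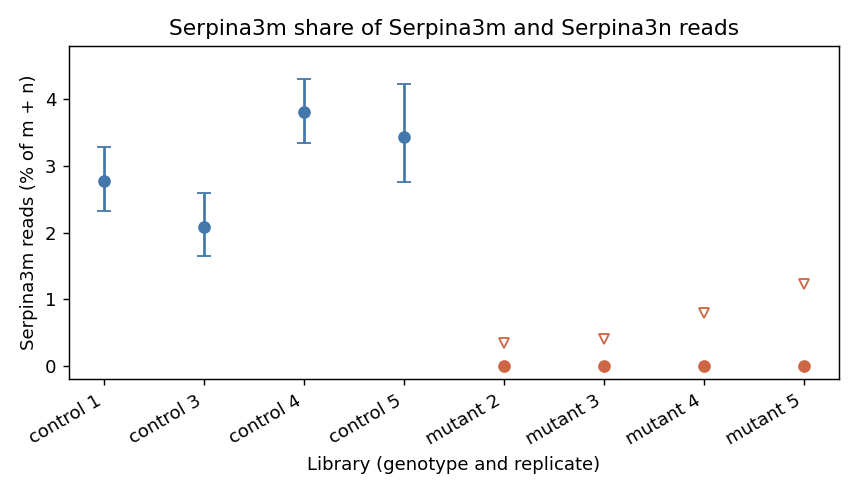
Reads on Serpina3m as a percentage of the reads on Serpina3m and Serpina3n in each library. Filled points are the shares, bars on controls are 95% exact binomial intervals, and open triangles are the upper limits that 0 reads allow in mutants (0.349% to 1.23%), all below the control shares (2.08% to 3.802%).

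Serpina3g (GSMG0008475), known from immune cells as an inhibitor of lysosomal cysteine proteases, came next to Serpina3m in abundance in controls. It had 55.9, 30.8, 162 and 45.8 normalized counts in control replicates 1, 3, 4 and 5 and 12.8, 22.2, 78.9 and 51.6 in mutant replicates 2, 3, 4 and 5. The groups overlapped, with means of 73.6 ± 59.9 and 41.4 ± 30.004. The log2 difference of -0.84 was smaller than the spread of the libraries, shrank to -0.37 without control replicate 4, and was -0.87 without control replicate 1. Replicate 4 was the highest library of Serpina3g in both genotypes.

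Serpina3f (GSMG0008476), the neighbour of Serpina3g, was lower still. It had 17.7, 3.08, 20.02 and 22.3 normalized counts in control replicates 1, 3, 4 and 5 and 15.4, 1.85, 47.2 and 45.6 in mutant replicates 2, 3, 4 and 5. The means were 15.8 ± 8.66 and 27.5 ± 22.5, and the groups overlapped. The log2 difference of 0.37 was within the spread and turned negative without control replicate 3 (-0.22), mutant replicate 4 (-0.10) or mutant replicate 5 (-0.09). Without control replicate 1 it was 0.52. Mutant replicates 4 and 5, the lowest libraries for Serpina3n, were the highest for Serpina3f.

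The remaining 4 members were below the filter of 10 normalized counts and hardly read at all. Serpina3i (GSMG0008478) had 6 reads, all in mutant replicate 4, and Serpina3h (GSMG0051317) had 17 reads, all in mutant replicate 4. Serpina3c (GSMG0009259) had 22 reads in control replicate 4, 6 reads in mutant replicate 4 and 0 in the other 6 libraries. Serpina3k (GSMG0008480) had 1 read each in control replicates 4 and 5. No difference between genotypes was detectable in these 4 genes at this depth. Replicate 4 thus held nearly all reads of the scarce members in each genotype.

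Of the 8 members, 4 passed the filter, and 2 of these 8 were both called lower and below every control library, where 3.17% and 2.17% of all genes tested were. The rule fixed those 2, so nothing is read from that share. Normalized counts per kb of the longest transcript set the genes side by side only roughly. Reads were counted on constitutive regions, which can be shorter than the whole transcript. On this scale the control means were 2306 for Serpina3n, 90.8 for Serpina3m, 40.8 for Serpina3g and 7.02 for Serpina3f. Serpina3n was 25.4 times Serpina3m and 56.5 times Serpina3g on that scale in controls. In mutants the means per kb were 247 for Serpina3n, 22.95 for Serpina3g, 12.2 for Serpina3f and 0 for Serpina3m. The order below Serpina3n is not firm, since Serpina3m at 48.3 to 144 per kb overlapped Serpina3g at 17.1 to 89.9 per kb in controls, and Serpina3g overlapped Serpina3f in mutants.

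Serpina3n took 96.1%, 97.1%, 93.2% and 94.5% of the reads on all 8 members in control replicates 1, 3, 4 and 5. It took 96.3% and 96.6% in mutant replicates 2 and 3 but 71.2% and 71.3% in mutant replicates 4 and 5, where Serpina3g and Serpina3f made up most of the rest. The study's libraries were sequenced in separate batches, and the labels do not say which library was in which, so the part of the batch in this difference between mutants was not tested. All 4 mutants were below every control for Serpina3n and Serpina3m by the rule that chose these genes, so nothing about batches is read from that.

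The paralogs are similar enough that reads could be shared. In their longest GENCODE transcripts, Serpina3c, Serpina3k and Serpina3m were 86.9% to 90.8% identical to one another, and Serpina3f, Serpina3g, Serpina3h and Serpina3i were 87.1% to 91.0% identical to one another. Serpina3n stood between the 2 groups, at 78.8% to 84.4% identity to each of the other 7 and 81.5% to Serpina3m. Only 0.204% of the 100-base stretches of Serpina3n (4 of 1965) occur unchanged in a transcript of another gene, against 6.09% for Serpina3m, all of them in Serpina3k. The share was 4.64% for Serpina3g, 3.58% for Serpina3f, 2.33% for Serpina3i, 4.21% for Serpina3h, 4.85% for Serpina3k and 0% for Serpina3c. For 50-base stretches it was 6.90% for Serpina3n, 19.1% for Serpina3m and 24.4% for Serpina3h, the highest of the 8. The level of Serpina3n therefore rests on almost wholly distinct sequence, while the few reads of Serpina3h and Serpina3i are uncertain between these genes. Whether the counting kept reads that map to more than 1 gene is not given in the sources used here.

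**Figure D3:**
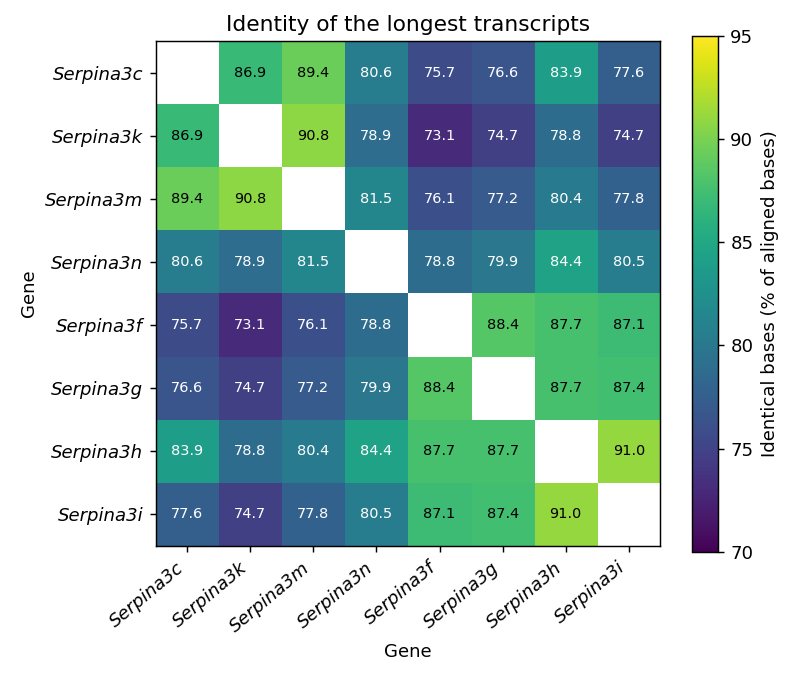
Identity between the longest GENCODE M21 transcripts of the 8 genes, as the percentage of aligned bases that match, with genes on both axes and the value in each cell. Serpina3c, Serpina3k and Serpina3m form one block (86.9% to 90.8%) and Serpina3f, Serpina3g, Serpina3h and Serpina3i another (87.1% to 91.0%), with Serpina3n between them.

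Most genes on either side of the row did not pass the thresholds, as was so for most genes tested. Within 1 Mb of the row the table lists 70 other genes, of which 30 were tested. Of these, 3 were called lower, 1 higher and 26 neither, with a median log2 difference of 0.01. Among all genes tested, 3.17% were called lower, 3.98% were called higher and 2.17% had every mutant below every control. Unc79, which encodes a subunit of the NALCN sodium leak channel complex, had 1296 ± 461 normalized counts in controls and 760.1 ± 214 in mutants, a log2 difference of -0.73. Fam181a, at 152 ± 40.01 and 59.7 ± 26.0, had a log2 difference of -1.39 and was below every control in every mutant. Serpina1b, an alpha-1-antitrypsin gene upstream of the Serpina3 row (chr12:103728156-103738189), had 58.6, 83.1, 95.1 and 0 normalized counts in control replicates 1, 3, 4 and 5 and 0 in all 4 mutants. It belongs to a set of near-identical Serpina1 copies, so its reads are uncertain. The gene called higher has no name in the table (chr12:103406822-103407822), and it was at 0 in all controls and at 13.8 ± 11.0 normalized counts in mutants. The adjusted p was 0.58 by limma with Benjamini-Hochberg adjustment for each of these 4 genes. Besides Fam181a, 1 of the 30 had every mutant below every control, Ddx24, an RNA helicase gene named after its values were seen, at 6854 ± 356 and 5951 ± 453, a log2 difference of -0.21 that did not pass.

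**Figure D4:**
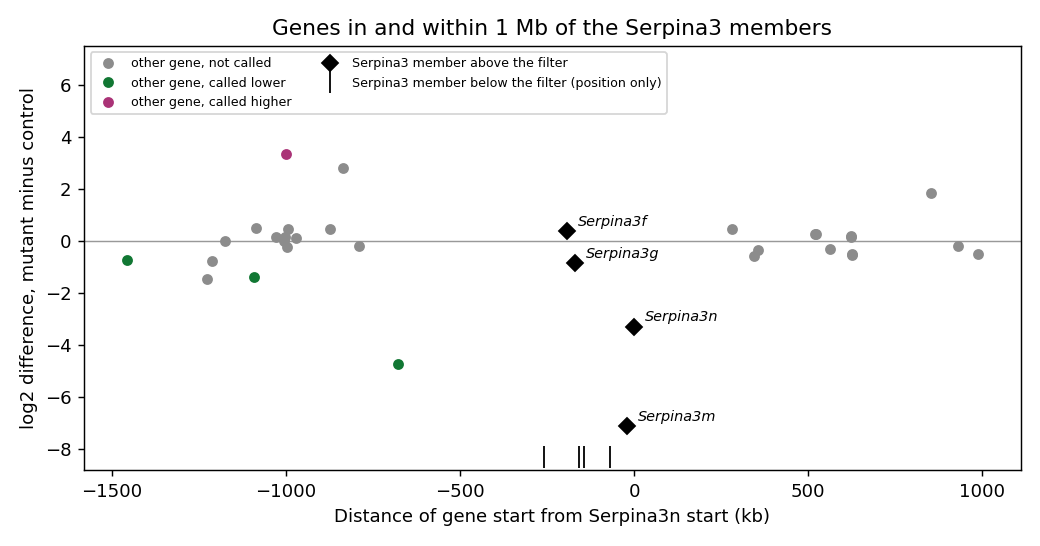
The log2 difference between mutants and controls (vertical axis) by distance of each gene's start from that of Serpina3n in kb (horizontal axis), for the tested Serpina3 members (diamonds) and the 30 other tested genes within 1 Mb (grey, not called; green, called lower; purple, called higher). Black ticks at the foot mark members below the filter by position only, and Serpina3m and Serpina3n sit below nearly all their neighbours.

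Beyond the Serpina3 row, 2 other clade A serpins of 17 listed were tested. Serpina1b was called lower as given above, and Serpina10, the protein Z-dependent protease inhibitor, had 53.8 ± 14.6 normalized counts in controls and 57.9 ± 32.5 in mutants. The list also holds the remaining coding Serpina3 genes of the row. Serpina3a and Serpina3b were at 0 in all 8 libraries, and Serpina3j (chr12:104314570-104320586) had 4 reads in all, 2 in control replicate 5 and 1 each in mutant replicates 2 and 5. Among serpins of other clades, 0 of 15 tested were called in either direction, with a median log2 difference of 0.11. Of all genes tested, 3.17% were called lower and 3.98% higher. Serpini1, which encodes the neuronal serpin neuroserpin, had 140568 ± 71301 normalized counts in controls and 64084 ± 42634 in mutants, a log2 difference of -1.25 that did not pass. Serpinh1, a collagen chaperone, had a log2 difference of -0.08. Of 13 tested proteases that serpins inhibit, 0 were called, and the most abundant, the lysosomal cathepsins Ctsb and Ctsl, had log2 differences of -0.95 and -0.996 with overlapping groups.

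Genes of interleukin-6 and STAT3 signalling and the acute phase, the programme that Serpina3n is known from, were also read as a list. Of 16 tested, 3 were called higher and 0 lower, beside 3.98% and 3.17% of all genes tested, with a median log2 difference of 0.31. Osmr, the oncostatin M receptor, rose from 689 ± 101 to 1140.2 ± 280.4 normalized counts, a log2 difference of 0.70. Jak2, a kinase of cytokine receptors, rose from 4457 ± 1433 to 8605 ± 2953, a log2 difference of 0.94. Stat3, the transcription factor that such kinases activate, rose from 6243 ± 1533 to 9435 ± 2659, a log2 difference of 0.59. These 3 encode signalling proteins, and no gene of the list for a secreted acute-phase protein was called. Of those, named after their values were seen, Hp (-2.27) and A2m (-1.75) were below 0, and Lcn2 (0.19) and Cp (0.29) were above it. A2m was at 0 in mutant replicate 3. The summed level of the list was 29453 to 37008 in controls and 36356 to 60516 in mutants, highest in mutant replicates 4 and 5, and without mutant replicate 4 only 1 of the list was called. Of 28 tested reactive astrocyte genes, 2 were called higher and 0 lower, with a median of 0.24. These were Osmr again and the complement gene C3, which was at 0 in all controls and at 157, 0, 49.2 and 17.9 normalized counts in mutant replicates 2, 3, 4 and 5. Without mutant replicate 4, 0 of the list were called higher.

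The labelled cells are MGE-derived interneurons, and all 12 of their markers were read. Of 11 tested, 4 were called lower and 0 higher, beside 3.17% and 3.98% of all genes tested, with a median log2 difference of -1.02. Gad1 and Gad2, which make GABA, had log2 differences of -1.04 and -0.93, the calcium-binding protein gene Pvalb had -2.08 and the fast-spiking potassium channel gene Kcnc1 had -1.02. Their summed level ran from 74930.2 to 522493 normalized counts in controls and from 29171 to 208022 in mutants, so the groups overlapped, with control replicate 5 and mutant replicates 4 and 5 lowest. Without control replicate 1, control replicate 3, mutant replicate 4 or mutant replicate 5, 1 of the 11 was called lower, without control replicate 4 it was 2, and without control replicate 5, mutant replicate 2 or mutant replicate 3 it was 7. Fewer cells of a type and less RNA per cell cannot be told apart in such pulldowns.

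Markers of other cell types, including those that Serpina3n is known from, were also read, and no marker of these lists was at 0 throughout. Of 10 oligodendrocyte markers, 3 were called lower and 0 higher, beside 3.17% and 3.98% of all genes tested, with a median log2 difference of -0.62. These were the myelin genes Mog (-0.73), Mag (-0.66) and Opalin (-0.64). Their summed level was 673772, 362807, 229955 and 324754 normalized counts in control replicates 1, 3, 4 and 5, and 202878 to 287269 in mutants, and without control replicate 1, 0 of the 10 were called. Leaving out control replicate 4 instead gave 7 of the 10, and leaving out control replicate 3 or mutant replicate 2, 3 or 4 gave 1. All 10 markers had a log2 difference below 0. Control replicate 1 was the highest library for both Serpina3n and the summed oligodendrocyte markers. Control replicate 4, with the second-highest level of Serpina3n, had the lowest control level of these markers. Of 10 astrocyte markers, 0 were called, with a median of -0.17 and summed levels of 139841 to 244055 in controls and 144927 to 165116 in mutants. The most abundant astrocyte markers, Aldoc and Slc1a3, had log2 differences of -0.48 and -0.11.

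Of 10 oligodendrocyte precursor markers and 10 microglia markers, 0 were called, with medians of -0.17 and -0.44. Of 10 endothelial and mural markers, 4 were called higher, Flt1 (0.69), Kdr (0.72) and Tek (0.85), which encode receptors of endothelial cells, and Pdgfrb (1.02), which encodes a receptor of mural cells. Their summed level was 164695 to 273973 in controls and 262154 to 280322 in mutants, and without control replicate 1, mutant replicate 4 or mutant replicate 5, 1 of the 10 was called. Among the 10 excitatory neuron markers, 6 had a log2 difference below 0, with a median of -0.15, and Neurod6 was called lower (-0.70). The call of Neurod6 was lost without control replicate 3. In all, 9 of the 140 distinct genes of the lists that were tested were called lower and 9 higher, 6.43% each, beside 3.17% and 3.98% of all genes. All adjusted p-values of these calls were 0.58 by limma with Benjamini-Hochberg adjustment. The part of any of these markers in the level of Serpina3n was not tested.

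**Figure D5:**
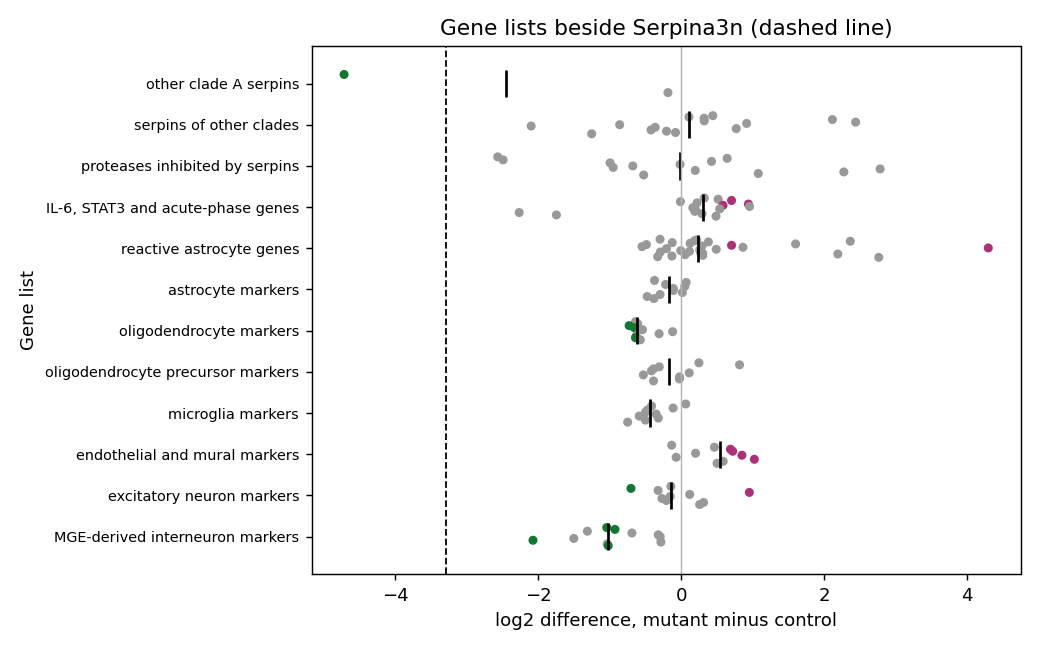
The log2 difference between mutants and controls (horizontal axis) of each tested gene of the 12 lists (rows), with black bars at the medians, green points for genes called lower and purple points for genes called higher. The dashed line is the Serpina3n difference of -3.29, and the medians of the 11 lists other than the other clade A serpins lie between -1.02 and 0.54.

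The 4 members that passed the filter were also compared by their values across the 8 libraries. The measure includes the difference between genotypes by which Serpina3n and Serpina3m were chosen, so it largely restates that difference. Likeness was measured as the root mean square difference over the 8 libraries of log2 values centred on each gene's mean, where 0 would be the same pattern. The distance was 1.98 between Serpina3n and Serpina3m, 1.72 between Serpina3n and Serpina3g, 2.50 between Serpina3n and Serpina3f, 3.23 between Serpina3m and Serpina3g and 3.96 between Serpina3m and Serpina3f. The distances of Serpina3m depend on the pseudocount given to its zeros. With a pseudocount of 10, chosen after seeing the data, its distance to Serpina3n was 0.59, nearer than Serpina3g at 1.66 and Serpina3f at 2.14. The 5 genes outside the row nearest to Serpina3n, with a pseudocount of 1, were an unnamed gene of chromosome 13 (chr13:13231628-13231979) at 0.73, the pseudogene Tmem181b-ps at 0.74, Tmem87a at 0.81, an unnamed gene of the mitochondrial genome (chrM:9459-9804) at 0.85 and Adam32 at 0.86. Tmem181b-ps had 739.7 ± 377 normalized counts in controls and 74.0 ± 39.0 in mutants. The 5 nearest to Serpina3m, with the same pseudocount, were an unnamed gene of chromosome 1 (chr1:66793645-66796300) at 0.35, Gm14403 at 0.58, Gm14322 at 0.70, the carboxypeptidase gene Cpa1 at 0.73 and the zinc finger gene Zfp971 at 0.73. Gm14403, Gm14322 and Zfp971 lie within chr2:177498206-178035859. Like Serpina3m, Gm14403 (343 ± 229.5 normalized counts in controls), Cpa1 (60.5 ± 29.1), Zfp971 (376 ± 209) and the chromosome 1 gene (105 ± 54.8) were at 0 in all 4 mutants, and Gm14322 had 1 read in 1 mutant. The search ranked genes on these same values. Genes near 0 in mutants were thus bound to come first for Serpina3m, and genes lower in mutants for Serpina3n, so nothing further is read from these lists.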

How the data were processed

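Ribosome-associated RNA from P15 cortical synaptosomes was sequenced in 4 control and 4 mutant libraries, which the study describes as biological replicates, and each of the 8 value columns carries a sample's name. Groups and replicate numbers come from the labels. The table the authors deposited holds normalized counts, treated here as a signal. Reads were aligned to mm10 with STAR 2.4.0, counted on constitutive regions of Fast DB genes and divided by DESeq2 size factors. FastQC, Picard and SAMtools are also named in the submitters' notes. The study describes separate sequencing batches, but the labels do not assign libraries to them, so no value within a batch is given.

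Dividing a column by the smallest positive value in it gave whole numbers (within 0.01) for 100% of values, which returned the reads. Reads on genes (51010687 to 80226984 per library) make counting error small for Serpina3n, so the spread between libraries limits precision. Of 56576 genes, 16918 were at 0 in all libraries, and those averaging 10 or more in either genotype entered the test on log2(normalized count + 1) with limma 3.58.1 (lmFit, eBayes with trend) in R 4.3.3, with no covariate and Benjamini-Hochberg adjustment. Fold changes on this scale understate the change of low genes. Calls used an unadjusted p of at most 0.05 and at least 1.5-fold. On recovered reads, edgeR 4.0.16 (quasi-likelihood, TMM) called 2279 genes and DESeq2 1.42.0 called 2834. The procedure was tested on simulated data.

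The members and the gene lists were chosen with earlier results of these data known, so members have no p-value and lists are given as counts and medians. Named genes are the members, Erbb4, Rpl22, the called genes of each list and within 1 Mb (in lists with none called, up to 2 of the most abundant), and the 5 genes nearest in pattern to Serpina3n and to Serpina3m. Of the called list genes, 1 is counted in the total but not reported here. The letters of a STAT motif and TATAAA were fixed for the promoters of Serpina3n and Serpina3m, and the search was widened to the members that RefSeq's table holds after the files were seen. Transcripts were the longest per gene in GENCODE M21, read in stretches of 50 and 100 bases, and matched to the table by symbol. Alternatives were pseudocounts of 0.1 and 10, no filter or a mean of at least 100, edgeR, DESeq2, a replicate block, an adjusted p under 0.05, reads scaled to library totals and leaving out each library.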

Additional observations from a re-analysis of the deposited data

Results flagged for a closer look

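In 4 of 40 groups of 4 libraries, the highest or lowest library stood further from the others than Dixon's 95% limit allows. For normally distributed values, chance gives about 1 in 20 groups, or 2 of the 40. All 4 were scarce Serpina3 genes read in a single library of the genotype. Such a group passes the limit at any number of reads, so that rate does not apply to these 4 and nothing is read from the count. In mutant replicate 4, Serpina3i had 6.15 and Serpina3h 17.4 normalized counts, beside 0 for both in the remaining mutants. Serpina3c had 22.0 normalized counts in control replicate 4 and 6.15 in mutant replicate 4, and 0 in the other libraries of each genotype. Serpina3n, Serpina3m, Serpina3g and Serpina3f had no library that stood apart in this way.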

How the results depend on the processing

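The rule chose Serpina3n and Serpina3m as lower in every mutant, so their direction was fixed beforehand and only the size of the difference could move. Serpina3n stayed lower in mutants under all alternatives, with log2 differences from -3.51 to -2.97 as each library was left out and -3.10 on reads scaled to library totals. Serpina3m stayed lower too, and its fitted log2 difference moved with the handling of its zeros, to -10.43 with a pseudocount of 0.1, -3.89 with a pseudocount of 10, -10.18 with edgeR and -9.75 with DESeq2, and ran from -7.38 to -6.85 as each library was left out. Erbb4 kept its call under all alternatives, except that its adjusted p was 0.58 by limma, with log2 differences from -1.58 to -1.01 as each library was left out. The genes called lower (988) became 1573 with DESeq2 and 14 at an adjusted p under 0.05 from limma, and 515 to 1977 as each library was left out: 643 and 551 without control replicates 1 and 3, 1537 and 1977 without control replicates 4 and 5, and 575 and 515 without mutant replicates 4 and 5. The genes called higher (1241) became 0 at that adjusted p, and 619 to 1792 as each library was left out (619 and 714 without mutant replicates 4 and 5). Lower genes were 44.3% of the calls in limma, 55.5% in DESeq2 and 31.9% without control replicate 3. List members called lower (9) became 14 with edgeR, 19 with DESeq2 and 0 at that adjusted p, and 3 to 18 as each library was left out (3 without control replicate 1, 18 without control replicate 4). List members called higher (9) became 0 at that adjusted p and 4 to 14 as each library was left out (14 without control replicate 5, 4 and 5 without mutant replicates 4 and 5). Within 1 Mb, the genes called lower (3) became 0 at that adjusted p and 1 to 4 as each library was left out (1 without mutant replicate 5), and the gene called higher (1) became 0 with a mean of at least 100, 0 at that adjusted p and 0 to 2 as each library was left out (0 without mutant replicate 3, 4 or 5, 2 without control replicate 5). The cause of these changes was not tested. With a mean of at least 100, no other clade A serpin was left for a median. Depth limits Serpina3i, Serpina3h, Serpina3c and Serpina3k, which had at most 22 reads in any library.

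Controls and mutants share replicate numbers 3, 4 and 5, but the deviations of same-numbered libraries correlated by only 0.08 to 0.10 (other pairs averaged -0.02), so the numbers were not taken as pairs. The correlations of controls with mutants were positive in all 8 pairs with both numbers from 1 to 3 or both 4 or 5 (0.02 to 0.10) and negative in the other 8 (-0.12 to -0.03). The labels do not say whether these are the sequencing batches. With a replicate block, 1719 genes were called lower, 8 of the 11 interneuron markers and 0 of the 10 oligodendrocyte markers were called lower, and Serpina3n was at -3.36. Control replicate 1 and mutant replicate 2 have no library of the same number in the other genotype. They add nothing to the genotype difference in that fit, which rests on replicates 3, 4 and 5.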
